A study of Mus musculus with 10 samples.

Results

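Alkal2 encodes a secreted ligand of the receptor tyrosine kinase ALK, and its transcript was described here in mouse trigeminal ganglion together with 4 other genes. These were Alkal1, the other ligand gene, Alk and Ltk, the genes of the related receptors ALK and LTK, and Acp1, a phosphatase gene on the opposite strand whose last exon runs into that of Alkal2. The 5 genes were picked by symbol and matched by Ensembl identifier, 4 of them among the 26411 genes of the surgery table and 5 among the 55886 genes of the injection table. Alkal1 was not analysed in the surgery experiment. Alkal2 was chosen from its rise after the injection of UCN1, so its values in that experiment are a description and carry no test.

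RNA was sequenced from 10 libraries in 2 experiments. In the surgery experiment, 3 pIONT and 3 sham libraries were made from ganglia of day 10 after the operation, where pIONT is the name in the labels, which do not spell it out. In the injection experiment, 2 libraries came from ganglia taken 6 hours after urocortin 1 (UCN1), a peptide of the corticotropin-releasing factor family, was put into the ganglion, and 2 from ganglia given phosphate-buffered saline (PBS) instead. No transgene, mutant allele or further treatment is named for any group, and the sources used here give neither strain, age and sex nor whether a library holds 1 ganglion or a pool. Nothing in the labels ties a group's libraries to separate animals, and a p-value here covers the scatter among these libraries alone, part of which could be technical.

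ALK and LTK belong to the insulin receptor superfamily, and their small secreted ligands ALKAL1 and ALKAL2 were identified long after the receptors. Binding of a ligand brings receptor molecules together, and their phosphorylated tails recruit adaptor proteins that feed the RAS to ERK and the PI3K to AKT cascades. ALK is best known as an oncogene in lymphoma, lung cancer and neuroblastoma. Of these, neuroblastoma is a tumour of the neural crest lineage, which also gives rise to part of the sensory neurons and to the glia of the trigeminal ganglion. Work in mice has placed Alkal2 in sensory neurons and linked it to persistent pain.

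Alkal2 (ENSMUSG00000054204) lies on the plus strand of chromosome 12 at chr12:30884322-30893854 in the injection table, whose coordinates are those of GRCm38, and at chr12:30934321-30943853 in the surgery table. Its 5 exons cover 1509 bases. Acp1 (ENSMUSG00000044573) lies on the minus strand at chr12:30893326-30911589 in GRCm38, and the 2 genes meet tail to tail. They share 529 exonic bases, chr12:30893326-30893854, which are 35.1% of the exon bases of Alkal2 and 14.6% of those of Acp1. The sources used here do not say whether reads were counted by strand, so those from the shared stretch cannot be told apart.

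**Figure D1:**
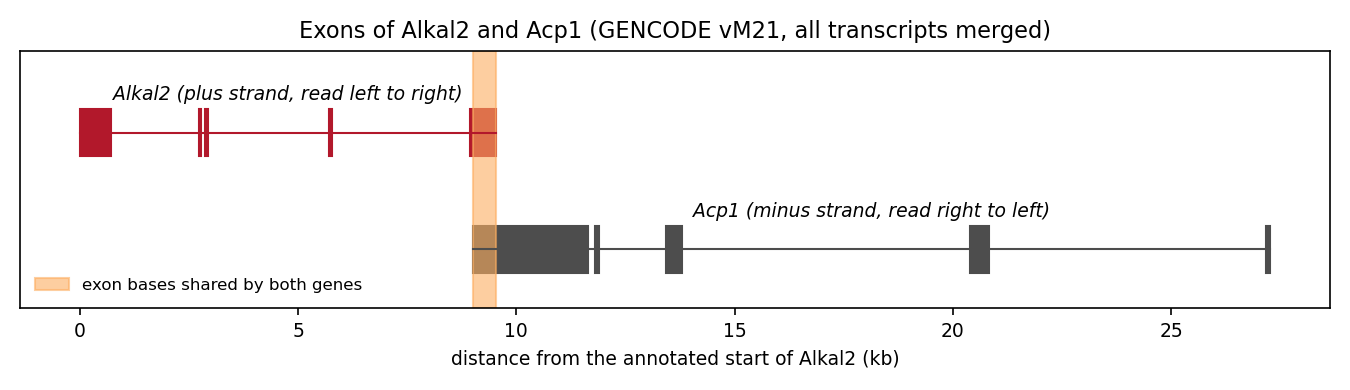
Exons of Alkal2 (top, red) and Acp1 (bottom, grey) drawn to scale against the distance from the annotated start of Alkal2 in kb. Boxes are exons merged over all transcripts, lines are introns, and the shaded band marks the 529 exonic bases that both genes hold.

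The 250 bases before the RefSeq start of each of these neighbours (GRCm38.p6) are shown because the starts are separate while the last exons overlap. That of Alkal2 is chr12:30884074-30884323 on the plus strand and that of Acp1 is chr12:30911613-30911862 on the minus strand, each written 5′ to 3′. Capitals mark TGACG, the core of the cAMP response element.
Alkal2: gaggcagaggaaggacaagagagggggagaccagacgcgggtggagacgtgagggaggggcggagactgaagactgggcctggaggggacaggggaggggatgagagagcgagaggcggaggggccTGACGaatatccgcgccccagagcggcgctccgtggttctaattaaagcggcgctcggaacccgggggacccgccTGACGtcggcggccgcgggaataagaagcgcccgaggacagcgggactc
Acp1: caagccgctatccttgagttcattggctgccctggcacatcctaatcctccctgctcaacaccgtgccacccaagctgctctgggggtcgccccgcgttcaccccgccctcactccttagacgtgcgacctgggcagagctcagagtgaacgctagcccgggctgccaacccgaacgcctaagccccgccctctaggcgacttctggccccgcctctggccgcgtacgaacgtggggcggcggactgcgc
The window of Alkal2 held TGACG at -124 and -49 from the start, and that of Acp1 held none on either strand. Of 32817 RefSeq promoter windows of the same length, 17.7% held TGACG on either strand and 3.9% held at least 2 matches. The match at -49 runs on as TGACGTC, letters that were searched after the sequence had been seen and that 2.78% of the windows hold. The full element TGACGTCA (in 1.55% of windows), the AP-1 element TGANTCA (6.75%) and the heat shock letters GAANNTTC (6.69%) had no match in either window. Alk had 1 match of TGACG, at -70, and Ltk had none of these letters. Base composition was close in the neighbours, at 68.0% G and C before Alkal2 and 66.8% before Acp1, against a median of 52.4% over all windows. These matches describe letters and were not tested for binding.

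Alkal2 was higher 10 days after pIONT than after sham surgery. Its level, in FPKM (fragments or reads per kilobase of gene length, scaled to the depth of the library), was 2.07, 2.41 and 2.37 in the pIONT libraries, against 0.75, 0.715 and 1.15 in the sham libraries. All 3 pIONT libraries lay above all 3 sham libraries, with the highest sham value in replicate 3. The means were 2.29 ± 0.184 FPKM in pIONT and 0.873 ± 0.244 FPKM in sham (SD, n = 3 each), a ratio of 2.62. On the log2(FPKM + 0.5) scale, which understates changes of low genes, the fold change was 1.03 with a standard error of 0.13 (limma adjusted p = 0.00345).

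Few reads carried these levels. Whole reads recovered from the steps of the FPKM values were 80, 106 and 106 for Alkal2 in the pIONT libraries and 31, 31 and 42 in the sham libraries. Over the pooled depth this was 3.46 reads per M (1e6 reads) in pIONT against 1.3 in sham, a ratio of 2.67 with an exact 95% interval of 2.13 to 3.38 that covers counting error only. Of all genes tested, 79.2% had a higher mean FPKM than Alkal2, while its log2 fold change ranked 221 of 14672 from the highest. Genes called at a limma adjusted p of 0.05 made up 22.8% of those tested, 10.5% higher and 12.3% lower in pIONT, so a call by itself was common in this comparison. Among all 26411 genes, 30.1% had pIONT and sham libraries that did not overlap.

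After UCN1, Alkal2 stood at 5.75 and 6.34 FPKM, against 1.52 and 2.33 FPKM after PBS. Both UCN1 libraries lay above both PBS libraries. Means were 6.05 ± 0.417 FPKM for UCN1 and 1.93 ± 0.574 FPKM for PBS (SD, n = 2 each), a ratio of 3.14. The reads behind them were 148 and 158 in the UCN1 libraries and 36 and 60 in the PBS libraries. Their pooled ratio was 3.11, with an exact 95% interval of 2.46 to 3.95 for counting error. The log2 fold change was 1.45 with a standard error of 0.22, which ranked 48 of the 16139 genes tested. In the injection experiment 0.601% of tested genes were called, 0.304% higher and 0.297% lower after UCN1, and 36.1% of the 28144 genes above 0 had groups that did not overlap. Since Alkal2 was selected on this contrast, nothing is read from its place among them.

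**Figure D2:**
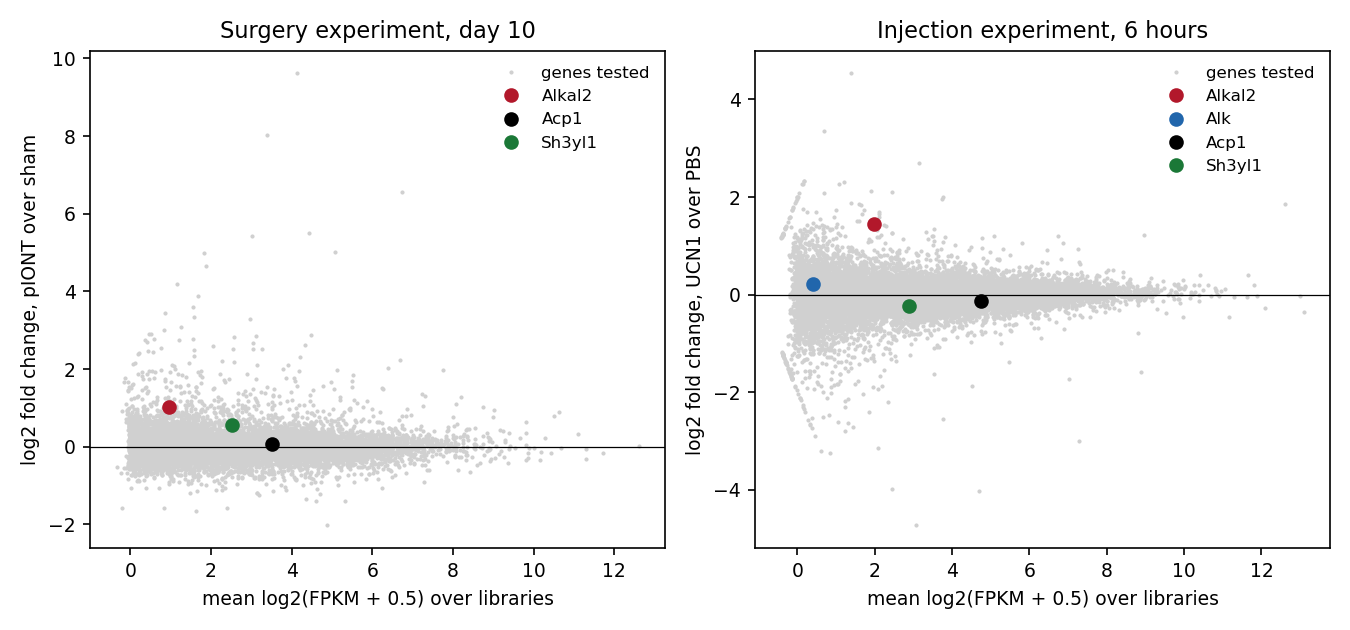
Log2 fold change (y axis; pIONT over sham on the left, UCN1 over PBS on the right) against the mean of log2(FPKM + 0.5) over the libraries of each experiment (x axis). Grey points are all genes tested; Alkal2 stands at 1.03 on the left and 1.45 on the right, while Acp1 stands at 0.06 and -0.14.

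Acp1, which encodes the low molecular weight protein tyrosine phosphatase and serves as the control for the overlap, was called in neither experiment. It had 11.3, 10.3 and 12.2 FPKM in the pIONT libraries, against 11.4, 10.4 and 10.5 FPKM in the sham libraries. The groups overlapped, and the log2 fold change was 0.06 with a standard error of 0.07 (limma adjusted p = 0.589). In the injection experiment it had 27.0 and 23.5 FPKM with UCN1, against 29.9 and 25.9 FPKM with PBS, again with overlapping groups and a log2 fold change of -0.14 with a standard error of 0.12. Per M reads, Acp1 had 41.0 in pIONT against 39.2 in sham, a pooled ratio of 1.05 (exact 95% interval 0.996 to 1.1), and 33.0 in UCN1 against 36.3 in PBS, a ratio of 0.909 (0.837 to 0.987). The interval for pIONT over sham holds 1, while that for UCN1 over PBS lies below 1. Both cover counting error only.

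Within each library, the ratio of Alkal2 to Acp1 sets both genes against each other independently of depth. This FPKM ratio was 0.183, 0.235 and 0.194 in the pIONT libraries, against 0.0655, 0.0684 and 0.11 in the sham libraries. It was 0.213 and 0.27 with UCN1, against 0.0508 and 0.0902 with PBS. Every pIONT ratio lay above every sham ratio, and every UCN1 ratio above every PBS ratio. The difference of the mean log2 ratios was 1.36 for pIONT minus sham and 1.82 for UCN1 minus PBS. No pseudocount was added to these ratios, unlike the log2 fold changes above. As Alkal2 was chosen for its rise after UCN1, its higher ratios there follow from that choice and are a description. The part of reads from the shared bases in these values was not tested.

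Other genes within 200 kb of Alkal2 gave a mixed picture. Sh3yl1, a gene for a protein with an SH3 domain, lies 17.8 kb away and had 6.44 ± 0.231 FPKM in pIONT and 4.21 ± 0.385 FPKM in sham (SD, n = 3 each). Its libraries did not overlap, and it rose by 0.56 on the log2 scale with a standard error of 0.07 (limma adjusted p = 0.00322). It was called in 14 of 14 alternatives. After UCN1 it had 6.24 ± 0.485 FPKM, against 7.49 ± 1.01 FPKM after PBS (SD, n = 2 each), a log2 fold change of -0.24 with a standard error of 0.16 (limma adjusted p = 0.553). Fam110c, 180.0 kb away, was at or below 0.0219 FPKM in every library.

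The receptor gene Alk (ENSMUSG00000055471, minus strand of chr17:71868972-72604627 in GRCm38) ran the other way after surgery, at levels below the 0.5 FPKM needed for the test. It had 0.166, 0.226 and 0.205 FPKM in the pIONT libraries, against 0.259, 0.449 and 0.433 FPKM in the sham libraries. All pIONT values lay below all sham values, with sham 1 the nearest to them. The means were 0.199 ± 0.03 FPKM in pIONT and 0.38 ± 0.105 FPKM in sham (SD, n = 3 each), a ratio of 0.523. These were 33, 51 and 47 reads in pIONT against 55, 100 and 81 in sham, a pooled ratio of 0.528 with an exact 95% interval of 0.423 to 0.657 for counting error. When all 26411 genes were tested without a filter, where 10.5% were called, Alk had a log2 fold change of -0.33 on the log2(FPKM + 0.5) scale and was not called (limma adjusted p = 0.106).

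With UCN1, Alk had 0.949 and 0.881 FPKM, against 0.752 and 0.676 FPKM with PBS. The values did not overlap, but the log2 fold change of 0.22 was smaller than its standard error of 0.30. The 59 and 53 reads with UCN1 and 43 and 42 reads with PBS gave a pooled ratio of 1.29, with an exact 95% interval of 0.961 to 1.72. That interval holds 1.

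Ltk (ENSMUSG00000027297, minus strand of chr2:119751320-119760431), which encodes the receptor related to ALK, was near the limit of detection. It had 0.131, 0.0859 and 0.103 FPKM in the pIONT libraries, against 0.183, 0.116 and 0.15 FPKM in the sham libraries, and the groups overlapped. It had 7 and 1 reads with UCN1, against 9 and 5 reads with PBS. The pooled ratios were 0.708 (exact 95% interval 0.434 to 1.15) for pIONT over sham and 0.557 (0.203 to 1.42) for UCN1 over PBS, and both intervals hold 1. Alkal1 (ENSMUSG00000087247, plus strand of chr1:6359218-6394731), the other ligand gene, was listed at 0 in all 4 injection libraries. A count of 0 allows up to 3 reads, or 0.181 and 0.187 FPKM in the UCN1 libraries and 0.197 and 0.181 FPKM in the PBS libraries.

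**Figure D3:**
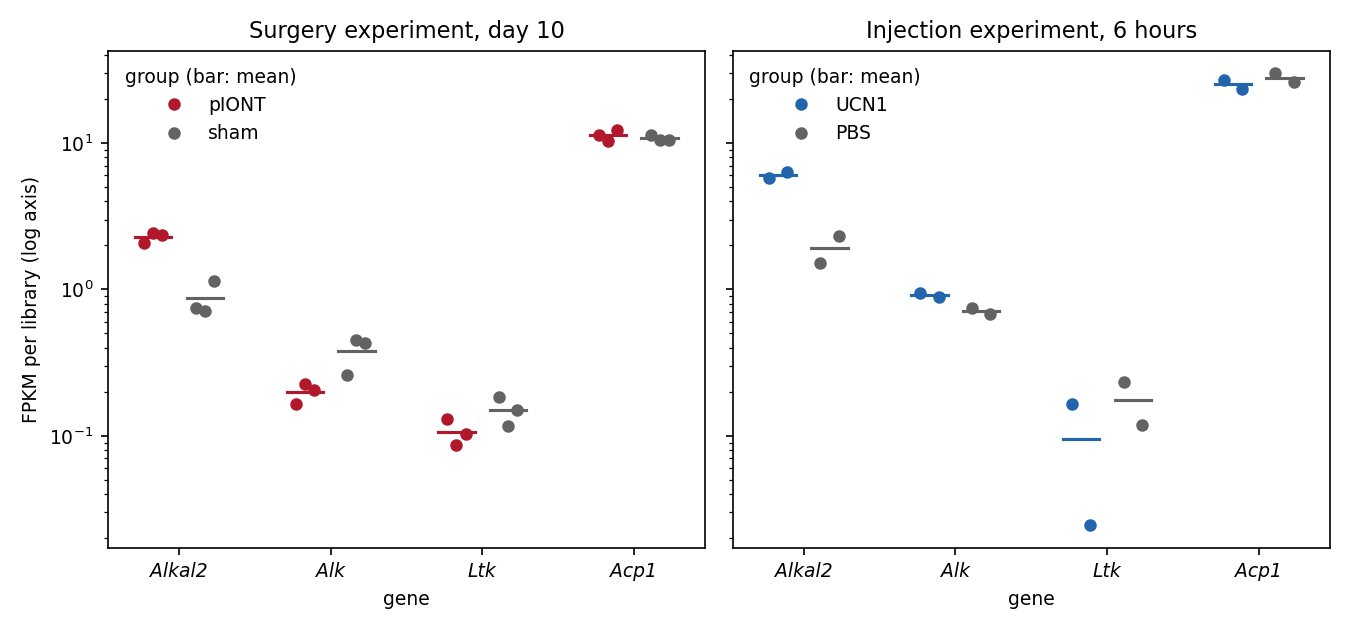
FPKM of each library on a log axis for Alkal2, Alk, Ltk and Acp1, with the pIONT or UCN1 libraries in colour to the left of the sham or PBS libraries in grey, and bars at the group means. Alkal2 stands higher in pIONT and in UCN1, Alk stands lower in pIONT, and Acp1 overlaps in both experiments; Alkal1, listed at 0, is left out.

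In order of FPKM, every group had Acp1 first, then Alkal2, Alk and Ltk, with no overlap between neighbours in the order within a group. Alkal1 and Ltk could not be placed against each other at this depth, since Ltk, at 0.166 and 0.0245 FPKM in the UCN1 libraries and 0.119 FPKM in PBS 2, was under the limits for Alkal1 in 3 of 4 libraries, and above it, at 0.232 FPKM, in PBS 1. Ligand and receptor transcript were also set against each other within each library. The FPKM of Alkal2 was 12.5, 10.7 and 11.6 times that of Alk in the pIONT libraries, against 2.9, 1.59 and 2.66 times in the sham libraries. It was 6.06 and 7.2 times that of Alk with UCN1, against 2.02 and 3.45 times with PBS. The mean log2 ratio, without a pseudocount, differed by 2.33 for pIONT minus sham and by 1.32 for UCN1 minus PBS, with no overlap of groups in either. The difference after UCN1 is a description, since Alkal2 was chosen for its rise there. Levels were not compared between the experiments, because their tables use different gene lengths.

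A bulk ganglion library mixes cells, and fewer cells of a type and less RNA per cell cannot be told apart. The 10 sensory neuron markers, which include Rbfox3 and Isl1, were all above 0 and summed to 4800 to 5010 FPKM in pIONT and 5010 to 5470 FPKM in sham, with 2 called higher and 7 lower, beside 22.8% called among all tested genes. For the 10 nociceptor markers the sums were 598 to 702 FPKM in pIONT and 749 to 823 FPKM in sham, with 5 called lower. The 7 macrophage markers summed to 122 to 202 FPKM in pIONT and 55.5 to 103 FPKM in sham, with 4 called higher. The 7 satellite glia markers summed to 2990 to 3690 FPKM in pIONT and 2620 to 2790 FPKM in sham, with 2 called higher. Apoe held most of these sums, at a mean of 2470 FPKM in pIONT and 1960 FPKM in sham, and was not called (limma adjusted p = 0.074). The 6 Schwann cell markers summed to 3740 to 4010 FPKM in pIONT and 4510 to 5000 FPKM in sham, with 5 called lower. Of the 6 endothelial markers 2 were called lower, and of the 10 fibroblast and meninges markers none was called. These counts rest in part on single libraries. Without sham 3, 4 sensory neuron markers and 1 nociceptor marker were called, and 2 nociceptor markers were called without sham 2 and 3 without pIONT 2. Macrophage calls came to 1 without sham 2, sham 3, pIONT 1 or pIONT 2. Satellite glia calls came to 1 without sham 2, sham 3 or any 1 pIONT library, and endothelial calls to 0 without sham 1 or sham 2 and to 1 without sham 3, pIONT 1 or pIONT 2. A fibroblast and meninges marker was called without pIONT 3, and a pituitary marker without sham 2.

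Pituitary markers, of which 7 had a row, summed to 117 to 132 FPKM in pIONT and 80.8 to 767 FPKM in sham, the highest being sham 1, which also had the highest sum of 5 oligodendrocyte markers, 9.56 FPKM. Without sham 1 the log2 fold change of Alkal2 was 0.97 (limma adjusted p = 0.0154).

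In the injection experiment the 8 pituitary markers summed to 9.14 and 9.61 FPKM in UCN1, where 3 of them were at 0 in both libraries, and to 124 FPKM in each PBS library, where 1 was at 0. After UCN1, 4 of 10 fibroblast and meninges markers and 3 of 5 tested pituitary markers were called lower, beside 0.297% of all tested genes. The fibroblast and meninges sums were 778 to 844 FPKM in UCN1 and 881 to 1150 FPKM in PBS. Mean FPKM in UCN1 and PBS was 1.14 and 42.9 for Mfap4 and 0.878 and 23.2 for Fmod. It was 0.0835 and 5.0 for Slc47a1 and 0.393 and 5.76 for Cpz. No other marker of that list was called, among them Dcn, with means of 231 and 224 FPKM. Nociceptor markers in that experiment summed to 1470 to 1570 FPKM in UCN1 and 1300 to 1350 FPKM in PBS, and 6 endothelial markers to 109 to 110 FPKM in UCN1 and 71.9 to 88.0 FPKM in PBS. Single genes held large parts of these sums. Calca had means of 780 FPKM in UCN1 and 644 FPKM in PBS, and Ly6c1, an endothelial marker, 59.5 and 34.3 FPKM. The satellite glia markers summed to 4790 to 4970 FPKM in UCN1 and 4220 to 4480 FPKM in PBS, of which Apoe held means of 3830 and 3370 FPKM. No marker of nociceptors, endothelium, satellite glia, sensory neurons, Schwann cells or macrophages was called after UCN1. Limma voom on recovered reads called 1 satellite glia marker and 1 endothelial marker, and none of the other types just named. A filter of 2 FPKM and a block for replicate number each called 1 satellite glia marker. Fabp7, of that list and named after its values were seen, had means of 109 FPKM in UCN1 and 69.4 FPKM in PBS (limma adjusted p = 0.0721). The called fibroblast, meninges and pituitary markers rest on 2 libraries per group. A fit that leaves out a library keeps only 1 in a group, so its calls cannot show whether these markers hold. The part of the marker shifts in the values of Alkal2 and Alk was not tested.

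Genes that act below or around ALK were followed in 5 lists with 61 genes, 59 of them tested in each experiment. The lists were adaptors, cascades, ERK output, genes around pleiotrophin and midkine, and other receptors of the insulin receptor superfamily. After pIONT, 7 were called higher and 10 lower, which is 28.8% against 22.8% of all tested genes. After UCN1 none was called, against 0.601% of all tested genes. At an unadjusted limma p under 0.05 there were 15 of the 59, where all genes gave 13.1%, and limma voom on the recovered reads called 7, where it called 2.23% of the genes it tested. Only the adaptor, cascade and ERK output genes act below ALK, and they also serve many other receptors.

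The adaptor list holds genes of adaptors and of proteins that work with them, such as SOS. After pIONT it split into 3 higher and 4 lower of 17, with a median log2 fold change of -0.08 beside -0.02 over all tested genes. Irs2, an insulin receptor substrate that couples receptors to PI3K, had 15.7 ± 1.41 FPKM in pIONT and 7.48 ± 0.367 FPKM in sham (SD, n = 3 each) and rose by 1.02 on the log2 scale (standard error 0.07, limma adjusted p = 0.000285). Shc2, a SHC family adaptor, rose by 0.30, while Shc1, of the same family, fell by 0.24 and Ptpn11, the gene of the phosphatase SHP2, fell by 0.22 (limma adjusted p = 0.00425, 0.0173 and 0.00887). Irs2, Shc2 and Ptpn11 were called in 14 of 14 alternatives, and Shc1 in 11 of 14, the others including those without sham 1 and without sham 2. In all, the 7 called adaptors became 3 without sham 1 or without sham 2, and 4 without sham 3 or without pIONT 1. After UCN1, Shc1 had 102 ± 2.98 FPKM, against 76.6 ± 2.46 FPKM after PBS (SD, n = 2 each; limma adjusted p = 0.099). Irs2 had 21.6 ± 0.0816 FPKM after UCN1 and 14.4 ± 2.37 FPKM after PBS (limma adjusted p = 0.136), a gene named here after its values were seen. Grb2, an adaptor that brings SOS to RAS, had 84.9 ± 2.42 FPKM after UCN1 and 89.3 ± 0.176 FPKM after PBS.

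Of the 19 genes of the RAS to ERK and PI3K to AKT cascades, 2 were higher and 2 lower in pIONT, with a median log2 fold change of 0.0. Nras, a RAS gene, rose by 0.44 and Akt1, an AKT kinase gene, by 0.27 (limma adjusted p = 0.00501 and 0.00958), and both were called in 14 of 14 alternatives. With UCN1 none of the 19 was called, and the median was 0.05. Mapk3, the gene of ERK1, had 1170 ± 68.6 FPKM with UCN1 and 1130 ± 25.8 FPKM with PBS (SD, n = 2 each).

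Of the transcripts known to rise or feed back when ERK is active, 15 were tested, and after pIONT 2 were called higher and 4 lower, with a median log2 fold change of -0.07. Phlda1, a pleckstrin homology domain gene, had 11.1 ± 2.07 FPKM in pIONT and 4.59 ± 0.477 FPKM in sham (SD, n = 3 each) and rose by 1.18 (standard error 0.13, limma adjusted p = 0.0018). Dusp5, a phosphatase that acts on ERK, fell by 0.44, the transcription factor gene Etv1 by 0.40 and Spry4, a feedback inhibitor, by 0.37 (limma adjusted p = 0.00783, 0.0118 and 0.0118). Mycn, a MYC family gene that works with ALK in neuroblastoma, rose by 0.31 (limma adjusted p = 0.0287), and it was named for that role after its values were seen. It was called in 7 of 14 alternatives, and of those that leave out a library only in that without pIONT 2, whereas Phlda1, Dusp5, Etv1 and Spry4 were called in 14 of 14. Fosl1 was too low to be tested in either experiment.

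After UCN1 the median of the same 15 transcripts was 0.31, beside -0.01 over all tested genes, and none was called. Their unadjusted limma p was under 0.05 in 8 of 15, beside 13.1% of all tested genes, and limma voom on recovered reads called 4, beside 2.23%. These 4, named after their values were seen, were Etv4, Spry1, Spry4 and Egr1. Over 12 alternatives their log2 fold changes were 0.7 to 1.08, 0.51 to 1.2, 0.43 to 0.75 and 0.59 to 0.7. A fit that leaves out a library keeps only 1 in a group, so its calls cannot show whether these genes hold. Etv4, an ETS family transcription factor gene, had 9.06 ± 1.75 FPKM with UCN1 and 4.64 ± 0.602 FPKM with PBS (SD, n = 2 each), a log2 fold change of 0.89 (limma adjusted p = 0.105, voom 0.0439). Spry1 and Spry4, Sprouty genes, were at 0.86 and 0.59 (limma adjusted p = 0.249 and 0.173), and Egr1, an immediate early transcription factor gene, at 0.64 (limma adjusted p = 0.169). By the rule of highest level, Etv5 had a log2 fold change of 0.23 and Spred2 of 0.08 (limma adjusted p = 0.323 and 0.787).

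**Figure D4:**
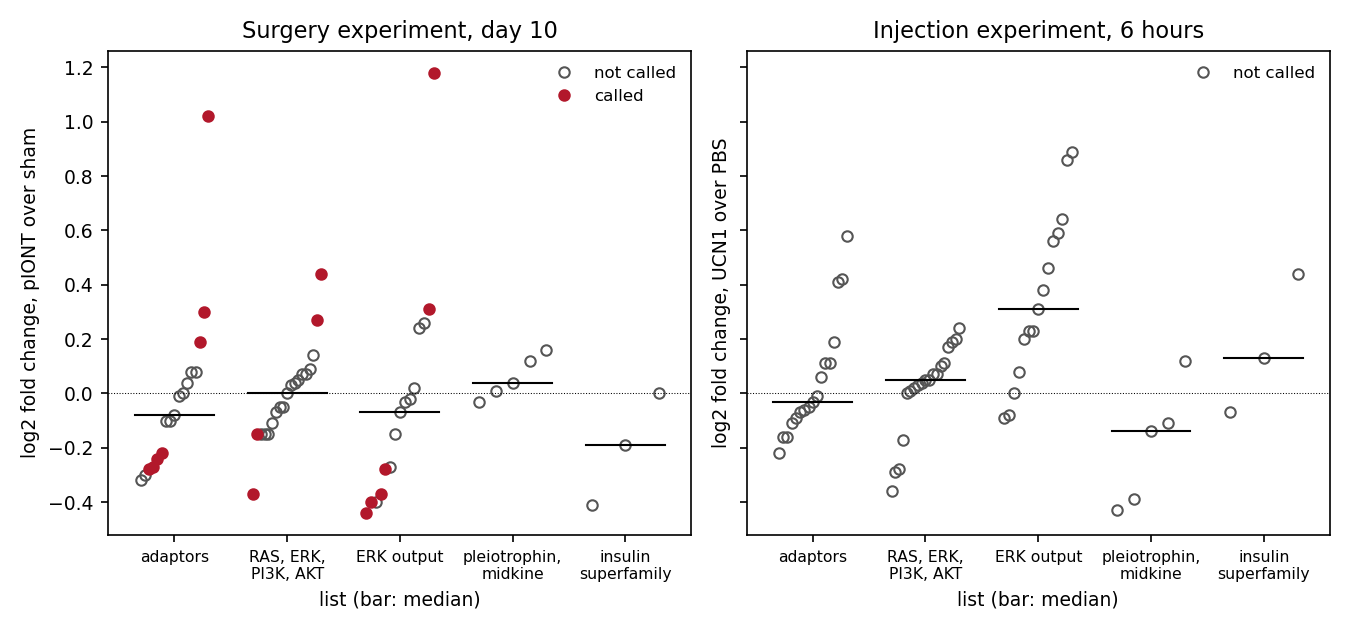
Log2 fold change of each tested gene in 5 lists, pIONT over sham on the left and UCN1 over PBS on the right; filled red points passed the limma test, open points did not, and bars are list medians. The ERK output list has a median of -0.07 on the left, with 6 called genes, and of 0.31 on the right, with none.

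None of the 5 genes around pleiotrophin and midkine, heparin-binding growth factors that have been discussed as ALK ligands, was called in either experiment. Ptn, the pleiotrophin gene, had 57.4 ± 1.5 FPKM in pIONT and 57.1 ± 1.52 FPKM in sham (SD, n = 3 each), and Sdc3, a syndecan that binds it, had 43.5 ± 3.09 FPKM in pIONT and 39.8 ± 0.812 FPKM in sham and was called only in the fit without pIONT 3, of 14 alternatives. Both Ptn and the midkine gene Mdk had an unadjusted limma p under 0.05 after UCN1, with log2 fold changes of -0.39 and -0.43 (limma adjusted p = 0.247 and 0.288). Of the other receptors of the insulin receptor superfamily, 3 were tested in each experiment and none was called. Igf1r, the insulin-like growth factor 1 receptor gene, had 2.85 ± 0.168 FPKM in pIONT and 3.32 ± 0.0215 FPKM in sham (SD, n = 3 each; limma adjusted p = 0.0581, called in 3 of 14 alternatives, among them that without pIONT 3), and Insr, the insulin receptor gene, had 2.82 FPKM in both groups. Ros1 was listed at 0 in all 4 injection libraries.

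The 5 protein-coding genes whose library values were most like those of Alkal2 were Socs3, Hspb1, Mustn1, Fosl2 and Tbx6. Likeness was the root mean square difference of log2(FPKM + 0.5) over the 10 libraries, after the mean of sham or of PBS was taken off, among 11672 genes. It was 0.29 for Socs3, 0.307 for Hspb1, 0.327 for Mustn1, 0.332 for Fosl2 and 0.344 for Tbx6, against 0.371 for the next gene and a median of 0.899. As likeness used the same libraries and contrasts, these genes are a description.

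Socs3, an inhibitor of cytokine signalling, had 8.02 ± 1.1 FPKM in pIONT and 4.08 ± 0.75 FPKM in sham (SD, n = 3 each), and 31.3 ± 3.44 FPKM with UCN1 and 15.5 ± 0.317 FPKM with PBS (SD, n = 2 each). Hspb1, the small heat shock protein named in the series title, had 335 ± 32.5 FPKM in pIONT and 195 ± 1.45 FPKM in sham, and 209 ± 17.1 FPKM with UCN1 and 110.0 ± 17.1 FPKM with PBS. Fosl2, an AP-1 subunit gene, had 2.49 ± 0.681 FPKM in pIONT and 1.17 ± 0.117 FPKM in sham, and 9.53 ± 0.344 FPKM with UCN1 and 4.7 ± 0.529 FPKM with PBS. Mustn1 and Tbx6, a T-box transcription factor gene, were low, at 3.88 ± 0.975 and 2.31 ± 0.0911 FPKM in pIONT, against 1.7 ± 0.309 and 1.39 ± 0.374 FPKM in sham. With UCN1 they had 3.06 ± 0.24 and 1.83 ± 0.217 FPKM, against 1.39 ± 0.583 and 0.723 ± 0.303 FPKM with PBS. Neither was called after UCN1 (limma adjusted p = 0.212 and 0.249), while Socs3, Hspb1 and Fosl2 were. All 5 genes were called after pIONT, Tbx6 in 7 of 13 alternatives. The log2 fold changes of the 5 genes were 0.59 to 0.98 for pIONT over sham and 0.93 to 0.99 for UCN1 over PBS, below those of Alkal2. Nothing is read from this order in either experiment. Alkal2 was chosen for its rise after UCN1, and the 5 genes for likeness to it over the libraries of both experiments.

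**Figure D5:**
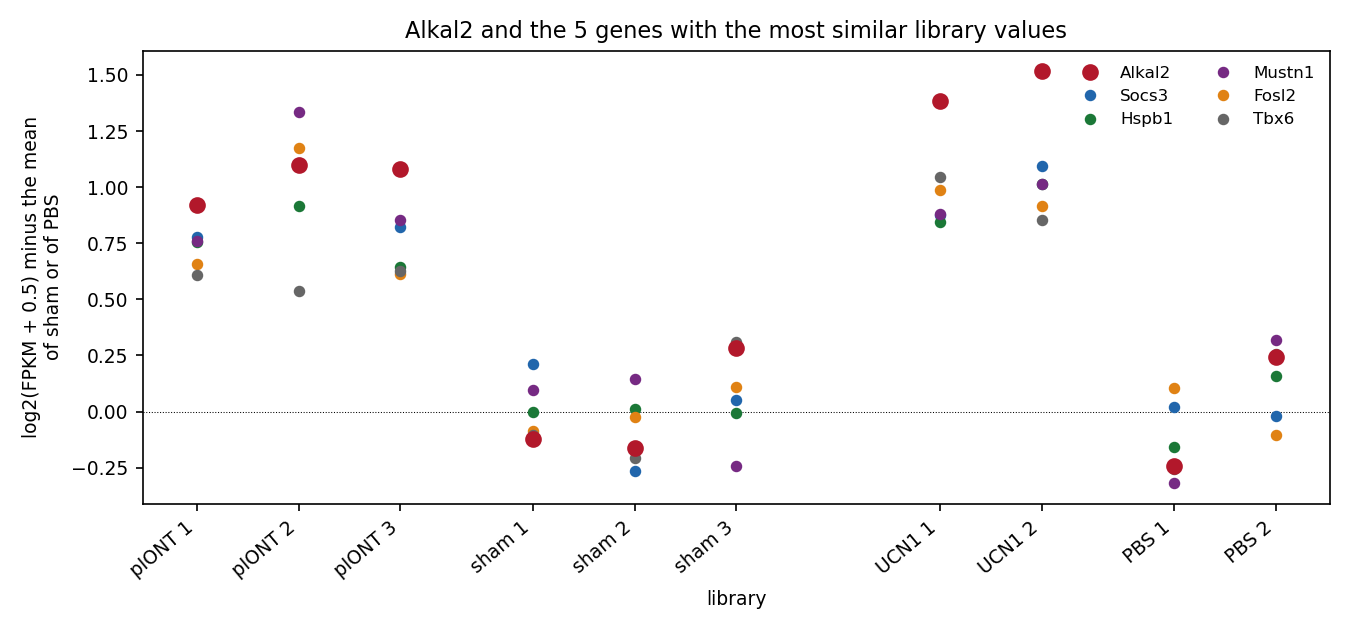
Library values of Alkal2 (large red points) and of the 5 genes most like it, as log2(FPKM + 0.5) minus the mean of sham or of PBS, for each library on the x axis. All 6 genes stand above the sham or PBS mean in every pIONT and UCN1 library, and in both UCN1 libraries Alkal2 is the highest of them. Alkal2 was chosen for its rise after UCN1 and the other 5 for likeness to it, so these positions follow from the choice.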

How the data were processed

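The values deposited by the authors are FPKM, in a separate table for each experiment. STAR, HTSeq and DESeq2 are named in the submitters' processing notes, without version or role, and so is GRCm39. Of the injection table's identifiers found in GENCODE vM21, 99.42% had the GRCm38 coordinates; of the surgery table's, 1.96%. TRIzol served for RNA extraction and a NEBNext Ultra II kit for the libraries, per the labels' protocols. Depth was recovered from the FPKM steps (92.1 to 92.6% of low values whole within 0.1 reads with merged exon length in the surgery experiment, and 98.8 to 99.0% with mean transcript length in the injection experiment): 25.57, 29.16 and 29.61 M (1e6) reads in pIONT, 27.41, 28.74 and 24.11 in sham, 17.05 and 16.51 in UCN1, and 15.69 and 17.05 in PBS. The injection table numbers its columns 1 and 3 where the titles have 1 and 2.

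Genes with a mean of at least 0.5 FPKM were tested within a table by limma 3.58.1 (R 4.3.3) on log2(FPKM + 0.5), with the variance trend over mean level and without covariates, and those with a Benjamini-Hochberg adjusted p under 0.05 are called. Alternatives changed the pseudocount, filter, scaling, test and libraries; scripts were tested on simulated data. Exact intervals condition on pooled reads and cover counting error only. Promoter windows came from RefSeq (GRCm38.p6; 4 of 5 symbols matched), and motifs were searched on both strands. The 5 genes and the 14 lists were chosen with earlier results of these data known. The text names all 5 genes; of each list up to 4 called genes of smallest p or, with none called, the 2 of highest level; named genes within 200 kb; and the 5 most alike, with at least 1 FPKM in both tables. Some genes that this rule names are not reported here.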

Additional observations from a re-analysis of the deposited data

How the results depend on the processing

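Alkal2 remained higher in pIONT with an adjusted p under 0.05 in 13 of 13 alternatives, with log2 fold changes of 0.82 to 1.43 and adjusted p of 0.0024 to 0.0154; its mean was too low for the filter of 2 FPKM. For UCN1 over PBS its log2 fold change was 1.21 to 1.69 in 12 alternatives. Acp1 passed in none of its 14 and 12 alternatives (0.0 to 0.12 for pIONT over sham, -0.24 to -0.04 for UCN1 over PBS). For Alk, UCN1 over PBS gave 0.22, and 0.32 with a pseudocount of 0.1, 0.16 with 1 and 0.36 with voom. Alk after pIONT and Ltk could be tested only without a filter.

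Over all genes, 3344 were called for pIONT over sham, and 1669 (without sham 3) to 2978 without 1 library; without sham 2 there were 2061. The split was 1537 higher and 1807 lower, against 1300 and 2251 with TPM and 1744 and 1440 with median-of-ratios scaling. For UCN1 over PBS 97 were called, against 2 without a filter, 155 with a filter of 2 FPKM, 352 with voom and 2 to 13 without 1 library, where the lone library is assumed to vary like the rest; the cause was not tested. Same-numbered libraries were not paired (correlations of deviations -0.06, -0.2 and 0.07 in the surgery experiment and 0.04 and 0.04 in the injection experiment). A replicate block gave 2085 and 260 calls, a log2 fold change of 1.03 for Alkal2 after pIONT (limma adjusted p = 0.0102), and no different call for Acp1 or Alk; after pIONT it ended the calls of Shc1 and Mycn, and after UCN1 it called Etv4 and Shc1. Ltk rested on 1 to 18 reads per library and Alkal1 on 0.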
